A study of Mus musculus with 61 samples.

Results

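Promoters with the lowest deposited Sono-seq values were examined in mouse embryonic fibroblasts (MEFs) on day 3 of reprogramming towards pluripotency. They are the lowest 10% of the autosomal start sites in the deposited Sono-seq table, ranked by the mean of the CAF-1 knockdown value and the Renilla value, which is called the level below. The rule kept 537 of 5374 autosomal start sites, carrying 508 of 5024 gene symbols, and left 4837 others. Members reached a level of 0.112871, the value of Fam18b, after 0.112869 at Cul3 and 0.112865 at D730005E14Rik. The first start sites outside were Fndc3a at 0.112896, Mageb3 at 0.112909 and Dennd2c at 0.112961, so the limit separates nearly equal values.

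All cells carried the alleles Col1a1::tetOP-OKSM and R26-M2rtTA, came from E13.5 embryos of the strain Black6-129X1/SvJ, and were treated with doxycycline, which switches on Oct4, Klf4, Sox2 and Myc. Sono-seq covered CAF-1 knockdown cells with 3 libraries and cells with a control hairpin against Renilla luciferase with 3 libraries. Sox2 ChIP-seq, an immunoprecipitation of DNA bound by Sox2, covered the hairpins Chaf1a.166, Chaf1a.2122 and Renilla, with 1 immunoprecipitate against 1 input each. The labels do not name the hairpin of the Sono-seq libraries, and the knockdown itself was not checked, because the expression samples were not analysed here. The Sono-seq table gives 1 value per condition and start site, in a unit that the sources used here do not state, and its read depth is unknown. No test between conditions was possible, and every comparison below is a description.

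CAF-1 is the histone chaperone that places histones H3 and H4 on newly copied DNA, and Chaf1a is its largest subunit. In Sono-seq, cross-linked chromatin is sonicated and the released DNA is sequenced, and open promoters tend to be over-represented. Replication-dependent histone genes sit in clusters, lack introns, are transcribed mainly in S phase and make the histones that CAF-1 and other chaperones deposit.

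Histone gene promoters were concentrated among the low promoters. Of 63 autosomal histone start sites, 46 were members (73.0%, 95% exact interval 60.3 to 83.4), against 9.99% of all autosomal start sites. They made up 8.57% of the low promoters and 0.351% of the other promoters. The interval takes start sites as independent, which neighbours in a cluster are not. To show what such promoters look like, the 250 bases before the start of the lowest member of each histone class with a RefSeq window are printed here 5′ to 3′ from the RefSeq promoter table of build GRCm38.p6. Capitals mark TATAAA, the core of the TATA box, and CCAAT, the core of the CCAAT box, on either strand (TTTATA and ATTGG on the other). Hist1h1d lies at chr13:23554782-23555031 on the plus strand and Hist2h2aa2 at chr3:96240375-96240624 on the minus strand. Hist1h2bh lies at chr13:23543445-23543694 on the minus strand, Hist1h3d at chr13:23575513-23575762 on the plus strand, and Hist1h4m at chr13:21832198-21832447 on the minus strand.
Hist1h1d: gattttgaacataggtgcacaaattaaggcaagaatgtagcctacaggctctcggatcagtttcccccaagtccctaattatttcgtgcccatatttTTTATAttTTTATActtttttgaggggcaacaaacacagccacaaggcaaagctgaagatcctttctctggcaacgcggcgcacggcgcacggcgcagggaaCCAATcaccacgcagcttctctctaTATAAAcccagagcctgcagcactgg
Hist2h2aa2: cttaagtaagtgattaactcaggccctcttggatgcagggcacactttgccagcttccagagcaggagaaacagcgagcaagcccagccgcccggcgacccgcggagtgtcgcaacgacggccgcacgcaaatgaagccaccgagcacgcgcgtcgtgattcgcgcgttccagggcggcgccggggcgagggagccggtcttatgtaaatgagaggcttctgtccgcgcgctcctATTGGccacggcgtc
Hist1h2bh: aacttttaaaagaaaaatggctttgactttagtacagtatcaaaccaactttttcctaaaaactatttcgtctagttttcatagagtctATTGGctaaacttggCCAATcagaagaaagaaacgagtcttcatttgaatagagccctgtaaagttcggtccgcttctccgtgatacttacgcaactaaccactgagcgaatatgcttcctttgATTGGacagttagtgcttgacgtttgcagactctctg
Hist1h3d: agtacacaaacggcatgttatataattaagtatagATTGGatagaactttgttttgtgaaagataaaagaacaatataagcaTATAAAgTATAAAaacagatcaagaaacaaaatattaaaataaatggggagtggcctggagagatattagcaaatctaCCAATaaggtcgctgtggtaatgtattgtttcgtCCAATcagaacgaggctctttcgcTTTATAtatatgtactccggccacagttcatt
Hist1h4m: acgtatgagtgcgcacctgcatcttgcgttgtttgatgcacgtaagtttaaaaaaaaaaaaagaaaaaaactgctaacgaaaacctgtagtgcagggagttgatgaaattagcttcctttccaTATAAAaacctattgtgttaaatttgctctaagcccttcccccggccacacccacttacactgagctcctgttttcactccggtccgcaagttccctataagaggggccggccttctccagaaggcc

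The printed histone promoters differ from each other in motifs. Hist1h1d, a linker histone gene, has TATAAA beginning 26 bases before the start and CCAAT 51 bases before it. Hist1h3d has CCAAT at 56 and 90 bases before its start, and Hist1h2bh has ATTGG at 37 bases. Hist1h4m has TATAAA only at 127 bases before the start and no CCAAT, and Hist2h2aa2 has ATTGG at 15 bases and no TATAAA. RefSeq held a window of 300 bases (250 before and 50 after the start) for 42 of the 46 low histone promoters, which gave 40 distinct windows. Hist1h3a, Hist1h3f, Hist2h2be and Hist3h2bb were without one.

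TATAAA or its reverse complement TTTATA, which can overlap each other, occurred in 25 of the 40 windows (62.5%), against 13.6% of all 32851 promoter windows of RefSeq. CCAAT or ATTGG occurred in 36 of 40 (90%), against 37.4% of all windows. The GC box GGGCGG or CCGCCC occurred in 30% of the histone windows and 35.7% of all windows. None of the 40 windows held the Sox motif CATTGTT or AACAATG, which 3.78% of all windows held, and none held the E-box CACGTG (7.15% of all) or the ETS motif CCGGAAG or CTTCCGG (8.86% of all). For 0 of 40 the exact interval reaches 8.81%. It includes the Sox and E-box shares of all windows and ends close to the ETS share, so no depletion can be read from these counts. The 15 windows of histone start sites outside the lowest 10% held TATAAA or TTTATA in 6 cases (40%) and CCAAT or ATTGG in 10 (66.7%). They held the GC box in 11 cases (73.3%), the ETS motif in 1, and neither the Sox motif nor the E-box. Of the TATAAA matches on the strand of the gene, 6 of 21 in the 40 windows began 40 to 20 bases before the start. In the 15 windows it was 5 of 6. The TATAAA shares thus count the letters at any place in the window. A match is a description of the letters and not a binding site. Median GC content was 44.2% in the 40 windows, 47.7% in the 15 other histone windows and 52.7% in all windows. The median ratio of observed to expected CpG was 0.752 in the 40 windows, 0.749 in the 15 and 0.384 in all windows. A high CpG ratio was thus not particular to the low histone promoters.

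Stretches of 30 bases that recur at another promoter were present in 6 of the 40 histone windows (15%) and 11.7% of all windows. They were dense in a few windows, and a relation of density to level was not tested. In the window of Hist1h4m, 256 of 271 such stretches recur elsewhere, and in that of Hist2h2aa2 190 of 271. The windows with the RefSeq symbols H2ac18 and H4c12 had 190 and 78 of 271. The printed Hist1h1d, Hist1h2bh and Hist1h3d windows had none. Reads of such copies can be hard to assign to 1 place, and its part in these levels was not tested.

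All core histone classes were present. H3 had 10 of 11 start sites among the members, H2A 15 of 18, H2B 14 of 17, H4 6 of 12, and the linker histone H1 1 of 5. Hist1h4m, an H4 gene at chromosome 13, position 21924027 (mm9), was the lowest, with 0.0292 in CAF-1 knockdown cells and 0.0287 in Renilla cells. Hist1h3f, an H3 gene, had 0.0631 in CAF-1 knockdown cells and 0.0398 in Renilla cells. Hist1h2bh, an H2B gene beside it, had 0.0694 in CAF-1 knockdown cells and 0.0481 in Renilla cells, so both were higher with CAF-1 knockdown. The H2A genes Hist2h2aa1 and Hist2h2aa2 are listed at a pair of neighbouring start regions each and were lower with CAF-1 knockdown at all 4 start sites. At position 96049503 of chromosome 3, Hist2h2aa2 had 0.0601 in CAF-1 knockdown cells and 0.0995 in Renilla cells, and at position 96044173 it had 0.0353 in CAF-1 knockdown cells and 0.0517 in Renilla cells. These near-identical gene copies could share reads, so their values are uncertain. H3f3a, which encodes the replication-independent H3.3, was a member near the limit, with 0.106 in CAF-1 knockdown cells and 0.118 in Renilla cells. Histone start sites outside included Hist1h1e at a level of 0.113, Hist1h4h at 0.126, Hist2h4 at 0.142, and H2afy, which encodes macroH2A1, at 0.146.

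The low histone promoters lay in a few clusters (all positions mm9). Each span runs from the first to the last histone member, with neighbouring members up to 100 kb apart joined. The ends are therefore members by construction, which raises the shares below. Histone start sites just outside the spans on chromosome 13 were not members: Hist1h4h at 23622918, Hist1h4d at 23673470 and Hist1h1a at 23855536. On chromosome 13, 11 of 13 listed start sites between 21808012 and 21924027 were members, as were 4 of 4 between 22127755 and 22135098, 11 of 12 between 23625779 and 23667670, and 7 of 9 between 23790318 and 23854255. On chromosome 3, 9 of 10 between 96023838 and 96073622 were members, and on chromosome 11, 3 of 3 between 58762412 and 58768186. Every start site of the table within these spans belonged to a histone gene. Chromosome 13 as a whole had 60 of 210 start sites among the members (28.6%), and 27 of 163 (16.6%) when histone start sites were left out. The other autosomes ranged from 4.57% on chromosome 19 to 15.6% on chromosome 3.

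Low levels were also shared between close start sites outside the histone genes. Of the low promoters, 113 had another listed start site within 1000 bp, and at 102 of them (90.3%) the nearest was a member too, against 11 of 1247 (0.882%) among the other promoters. Among non-histone members the share was 79 of 90 (87.8%). Some close start sites carry identical values, such as the pair of Zfp809 start sites at 0.112 in CAF-1 knockdown cells and 0.0981 in Renilla cells. The width of the window behind a value is not stated in any source used here, so close start sites are not separate measurements.

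Predicted genes and pseudogenes were frequent among the 10 lowest start sites. Gm6623, a transcribed pseudogene in RefSeq, was lowest with 0.00495 in CAF-1 knockdown cells and 0.00463 in Renilla cells. Zfp808, a zinc finger protein gene on chromosome 13, had 0.0115 in CAF-1 knockdown cells and 0.0198 in Renilla cells. Rsph3b, which encodes a radial spoke head protein of cilia, had 0.0211 in CAF-1 knockdown cells and 0.0192 in Renilla cells. The remaining 7 were Gm14139, Gm14124, Vmn2r-ps14, Hist1h4m, 6820431F20Rik, EU599041 and 2310001H12Rik, with levels between 0.0187 and 0.0343.

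By family, transcribed pseudogenes had 10 of 26 start sites among the members (38.5%), and genes with RIKEN or predicted names 64 of 467 (13.7%). Zinc finger protein genes had 17 of 120 (14.2%, exact interval 8.47 to 21.7), including Zfp825, Zfp747, Zfp458 and Zfp459. Cytosolic ribosomal protein genes had 3 of 56 (5.36%, Rpl26, Rplp0 and Rps29), mitochondrial ribosomal protein genes 2 of 30, and solute carrier genes 5 of 95 (5.26%). The exact intervals of the zinc finger, both ribosomal and the solute carrier families include the 9.99% of all start sites. No small nucleolar RNA start site was a member, 0 of 46, for which the exact interval reaches 7.71%. Protein-coding genes as a whole had 508 of 5125 (9.91%).

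**Figure D1:**
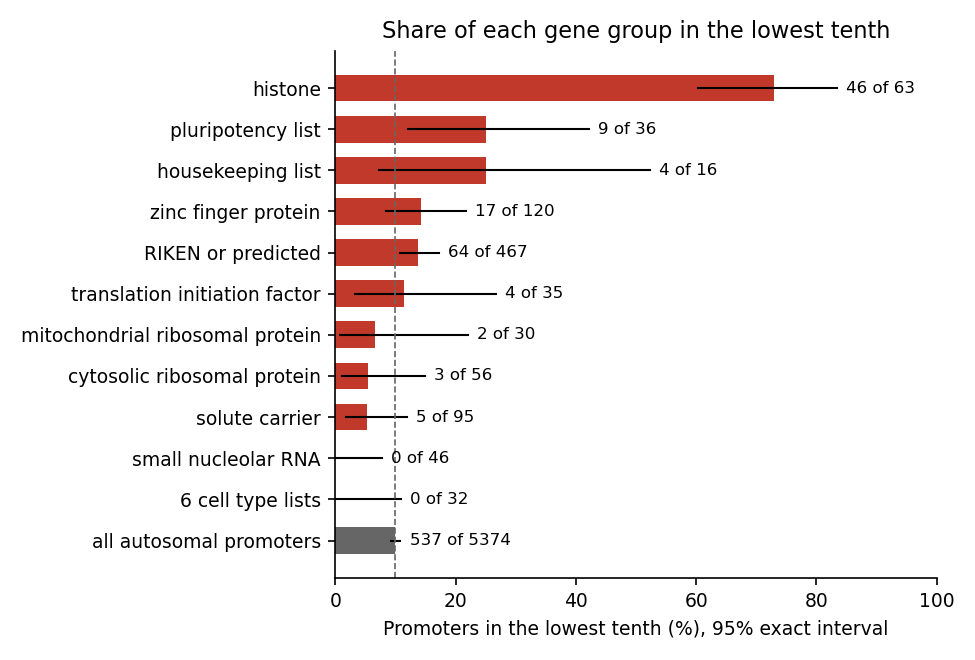
Share of the autosomal start sites of each gene group that lie in the lowest 10% of level (horizontal axis, percent), with exact 95% intervals as lines and counts beside them. The dashed line marks the share of all autosomal start sites, 9.99%; histone genes reach 73.0%, and small nucleolar RNA genes and the cell type lists hold no member.

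Of the pluripotency list, 9 of 36 start sites were members (25%, exact interval 12.1 to 42.2), against 9.99% of all. The 36 start sites carry 34 symbols and include neighbours, and the interval takes them as independent. The list was chosen with earlier results of these data known. Its members were Dppa5a, Zfp42, Dppa4, Dppa2, Lin28b, Jarid2, Sall1, Tet1 and Tcl1. Dppa2, whose protein binds DNA together with Dppa4, had 0.103 in CAF-1 knockdown cells and 0.0507 in Renilla cells, the highest ratio of all low promoters. Dppa4, on the same chromosome 16, had 0.0731 in CAF-1 knockdown cells and 0.0800 in Renilla cells, so these neighbours differed in opposite directions. Dppa5a, which encodes an RNA-binding protein of ES cells, had 0.0511 in CAF-1 knockdown cells and 0.0664 in Renilla cells. Zfp42, the ES cell marker also called Rex1, had 0.0758 in CAF-1 knockdown cells and 0.0685 in Renilla cells. The others spanned levels from 0.0864 at Lin28b, which encodes an inhibitor of let-7 microRNA processing, to 0.108 at Tcl1, a co-activator of the kinase Akt. The list as a whole lay low, with a median level of 0.127 against 0.143 for all autosomal start sites, and 25 of its 36 start sites were under that median of all. Of the 27 start sites that were not members, 16 were under it, such as Lin28a at 0.118 and Sall4 at 0.119. The remaining 11 were above it, among them Sox2 at 0.148, Pou5f1 at 0.154 and Nanog at 0.189.

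Of the germ line list, 2 of 7 start sites were members (exact interval 3.67 to 71.0%), Prdm1 and Nanos3. This interval and those of the next lists include the 9.99% of all start sites. Prdm1, a transcriptional repressor needed for germ cell specification, had 0.113 in CAF-1 knockdown cells and 0.102 in Renilla cells. Of the housekeeping list, 4 of 16 were members (7.27 to 52.4%): Cct2, Hspa8, Rplp0 and Ubb. Of the chromatin assembly list, 2 of 8 were members (3.19 to 65.1%), both start sites of Nasp, which encodes a histone chaperone. Nasp had 0.0853 in CAF-1 knockdown cells and 0.119 in Renilla cells at position 116300102 of chromosome 4. Lists of fibroblast, epithelial, macrophage and blood, endothelial, muscle and neural genes held no member among 32 start sites, with an exact upper bound of 10.9%. The table covers promoters paired with ES cell enhancers, so only part of each list was measured.

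Between conditions, the low promoters were nearly level, with a slight tilt to lower values in CAF-1 knockdown cells in the values as deposited. The values ran from 0.00495 to 0.136 in CAF-1 knockdown cells (median 0.0997) and from 0.00463 to 0.134 in Renilla cells (median 0.102). The log2 ratio (CAF-1 over Renilla) had a median of -0.033 (95% interval from order statistics -0.053 to -0.0066) in the low promoters and -0.0055 (-0.014 to 0.0014) in the other promoters. Higher values with CAF-1 knockdown were found at 239 of 537 low promoters (44.5%, 40.3 to 48.8), against 48.4% of all autosomal start sites and 48.9% of the others. With CAF-1 values scaled to the Renilla median of promoters, the median was -0.020 in the low promoters and 0.0074 in the others. The interval of the low promoters, -0.040 to 0.0064, then spanned both signs. After scaling, 46.7% of the low promoters (42.5 to 51.1) and 51.1% of the others were higher with CAF-1 knockdown. The rule used both values, so these ratios are not independent of it. When members were chosen by the Renilla value alone the median was 0.14 and 69.8% were higher with CAF-1 knockdown. When they were chosen by the CAF-1 value alone it was -0.21 and 20.7%.

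The median did not set the low promoters apart from the promoters next to them in level. The second and the third lowest of the 10 level classes had medians of -0.036 and -0.044, and the classes with the highest levels 0.027 and 0.038. The spread of the ratio was largest in the lowest class, with an SD of 0.259 over start sites (0.244 to 0.276), then 0.238 in the next and 0.195 in the highest. Within the members, split into 5 by level, the SD was 0.319 in the lowest and 0.240 in the highest group. The read depth behind these values is unknown, and its part in the spread was not tested.

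**Figure D2:**
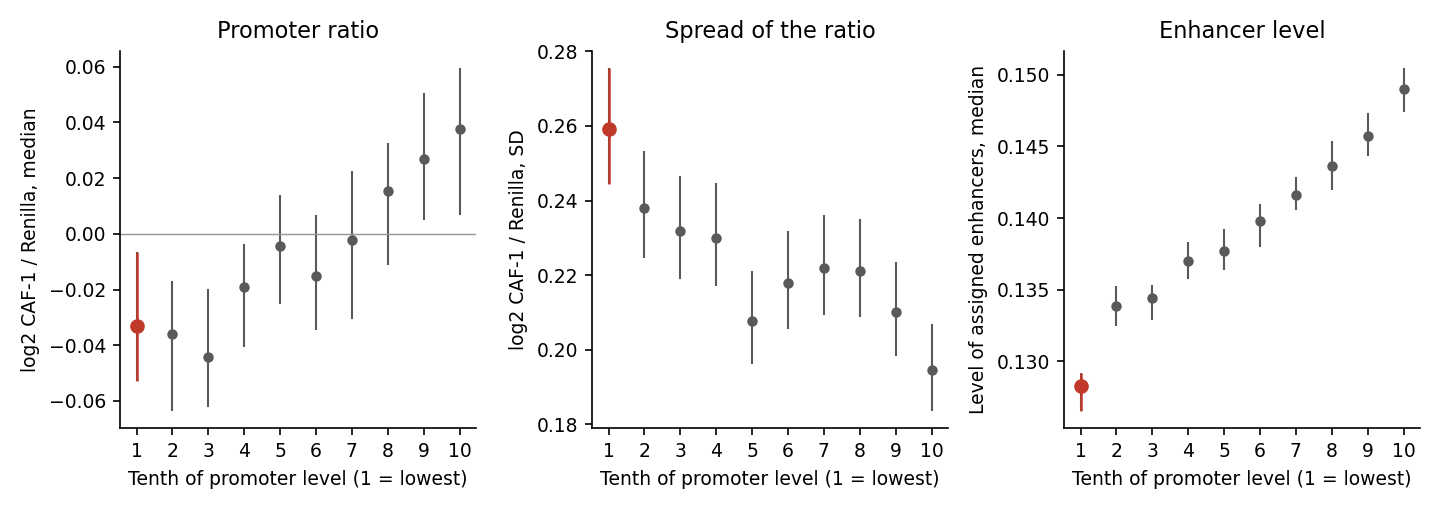
Median log2 of CAF-1 over Renilla (left), its SD over start sites (middle) and median level of assigned enhancers (right) for 10 classes of autosomal start sites by level, the lowest in red; vertical lines are 95% intervals. The SD goes from 0.259 in the lowest class to 0.195 in the highest, and the enhancer median from 0.128 to 0.149.

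A log2 ratio of at least 0.5, a 1.41-fold difference, was seen at 11 low promoters in the direction of CAF-1 knockdown (2.05%), against 1% of all autosomal start sites. In the direction of Renilla it was 15 (2.79%), against 1.58%. After Dppa2, with a log2 ratio of 1.02, came Pum2, which encodes an RNA-binding translational repressor, with 0.125 in CAF-1 knockdown cells and 0.0716 in Renilla cells. Dyrk1a, a protein kinase gene, had 0.116 in CAF-1 knockdown cells and 0.0728 in Renilla cells. Paqr5, a membrane progesterone receptor gene, had 0.136 in CAF-1 knockdown cells and 0.0864 in Renilla cells. Of the 5 highest ratios the remaining one was Hist1h3f.

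The lowest ratio belonged to Zfp808, with a log2 ratio of -0.78 at values among the lowest in the table. Next were start sites of Hist2h2aa1 and Hist2h2aa2 with -0.73 each. Spr, which encodes sepiapterin reductase of tetrahydrobiopterin synthesis, had 0.0620 in CAF-1 knockdown cells and 0.100 in Renilla cells. Mre11a, a nuclease gene of double-strand break repair, had 0.0797 in CAF-1 knockdown cells and 0.121 in Renilla cells. Histone members as a group had a median log2 ratio of -0.013 (-0.14 to 0.060), with 23 of 46 higher in CAF-1 knockdown cells.

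**Figure D3:**
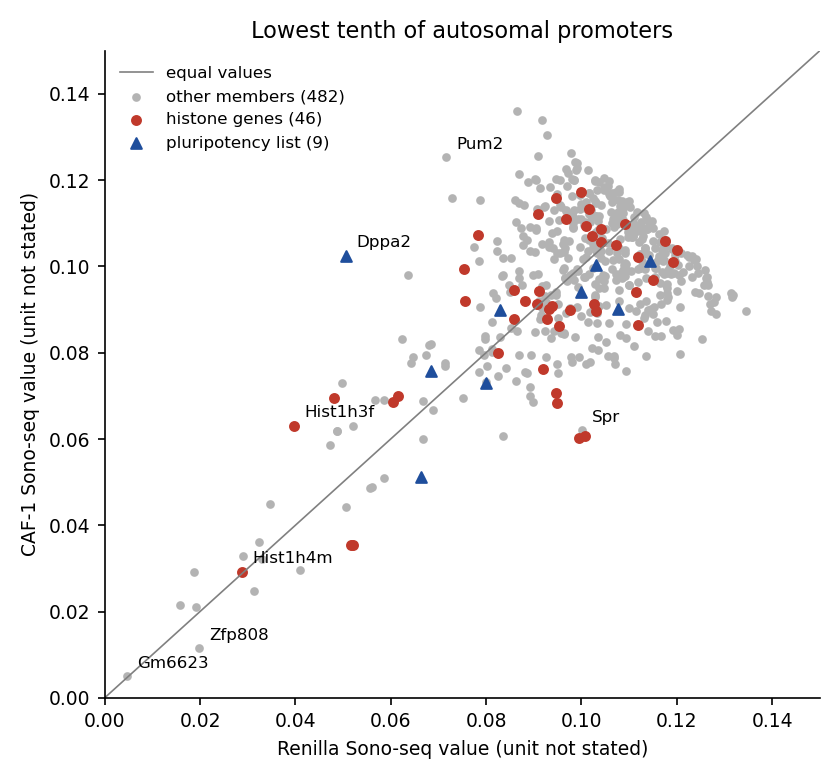
CAF-1 knockdown value (vertical) against Renilla value (horizontal), both in the unstated unit of the table, for the 537 low promoters; the line marks equal values. Histone genes (46, red) lie on both sides of the line, Dppa2 lies far above it at 0.103 in CAF-1 knockdown cells and 0.0507 in Renilla cells, and the sloping upper edge is the limit on the mean of both values.

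Enhancers assigned to the low promoters also had low levels, a value that the rule did not use. The 1666 enhancers of low promoters had a median level of 0.128 (0.127 to 0.129), against 0.140 (0.140 to 0.141) for 12437 enhancers of other promoters only. Of them, 326 (19.6%, 17.7 to 21.6) lay in the lowest 10% of all enhancers, against 8.72% of the others. Distance was taken to the nearest start site that an enhancer was assigned to, which may be another than the low promoter. On that measure the difference was seen near and far. Within 10 kb the median was 0.122 for low promoters and 0.140 for the others. From 10 to 50 kb it was 0.130 for low promoters and 0.141 for the others, and beyond 50 kb 0.129 and 0.140 for the same groups. The median distance was 27457 bp for enhancers of low promoters and 27346 bp for the others. The enhancer medians went up with promoter level through all 10 classes, to 0.149 in the highest. An enhancer assigned to start sites of several classes counted in each of them.

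Enhancer ratios differed little between the groups. The log2 ratio had a median of 0.015 (0.0014 to 0.029) at enhancers of low promoters and 0.030 (0.026 to 0.035) at the others, and higher values with CAF-1 knockdown were found at 52.6% of the enhancers of low promoters and 55.7% of the others. Among members with at least 3 enhancers, Dynlt1b, a dynein light chain gene, had the lowest enhancer median, 0.0104. It was followed by Zfp458, Uqcrb and Gm10767, which share a median of 0.0379, and Zfp825 with 0.0404. High enhancer medians stood beside low promoters at Stk32c (0.170), Hip1r (0.167), Asap2 (0.167), Hspb1 (0.160) and Vmn2r-ps14 (0.159). Hspb1 encodes a small heat shock protein, and its promoter had 0.0857 in CAF-1 knockdown cells and 0.0852 in Renilla cells. Enhancers of low promoters thus spanned a wide range of levels.

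Sox2 positions within 10 kb were slightly more frequent near low promoters than near others, and each interval includes the share of all start sites. In the Chaf1a.166 list, 165 low promoters (30.7%, exact interval 26.8 to 34.8) had a position within 10 kb, against 28.8% of all autosomal start sites. In the Chaf1a.2122 list it was 188 (35.0%, 31.0 to 39.2), against 33.7%, and in the Renilla list 174 (32.4%, 28.5 to 36.5), against 29.6%. The other promoters had 28.6% in Chaf1a.166, 33.6% in Chaf1a.2122 and 29.3% in Renilla. The lists differ in length, with 15888 positions in Chaf1a.166, 19319 in Chaf1a.2122 and 17681 in Renilla, and each comes from 1 immunoprecipitate.

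Over all positions of the lists, the excess was not present without the histone start sites. Of the 46 low histone promoters, 34 (73.9%, 58.9 to 85.7) had a position within 10 kb in Chaf1a.166, 41 (89.1%, 76.4 to 96.4) in Chaf1a.2122 and 36 (78.3%, 63.6 to 89.1) in Renilla. They shared positions, the nearest ones being 16 distinct positions in Chaf1a.166, 21 in Chaf1a.2122 and 18 in Renilla. High shares were not particular to the low histone promoters. The 17 histone start sites outside the lowest 10% had 58.8% (32.9 to 81.6) in Chaf1a.166, 70.6% (44.0 to 89.7) in Chaf1a.2122 and 58.8% (32.9 to 81.6) in Renilla. The 491 other members had 26.7% in Chaf1a.166, 29.9% in Chaf1a.2122 and 28.1% in Renilla, each under the share of all other promoters. When all histone start sites were left out and the lowest 10% taken again, the shares were 26.6% against 28.5% of the rest in Chaf1a.166, 30.5% against 33.4% in Chaf1a.2122, and 27.7% against 29.2% in Renilla.

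Among stronger positions, those for which the authors' lower bound of fold enrichment was at least 2, the difference was larger. In Chaf1a.166, 136 low promoters (25.3%, 21.7 to 29.2) had such a position within 10 kb, against 20.5% of all start sites and 20.0% of the other promoters. In Chaf1a.2122 it was 127 (23.6%, 20.1 to 27.5), against 20.8% of all and 20.5% of the others, and in Renilla 124 (23.1%, 19.6 to 26.9), against 19.9% of all and 19.6% of the others. The Chaf1a.166 interval thus lies above the share of the others. Histone members again had the high shares, with 69.6% in Chaf1a.166, 65.2% in Chaf1a.2122 and 56.5% in Renilla. The other members had 21.2% in Chaf1a.166, 19.8% in Chaf1a.2122 and 20.0% in Renilla, near the shares of the other promoters.

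**Figure D4:**
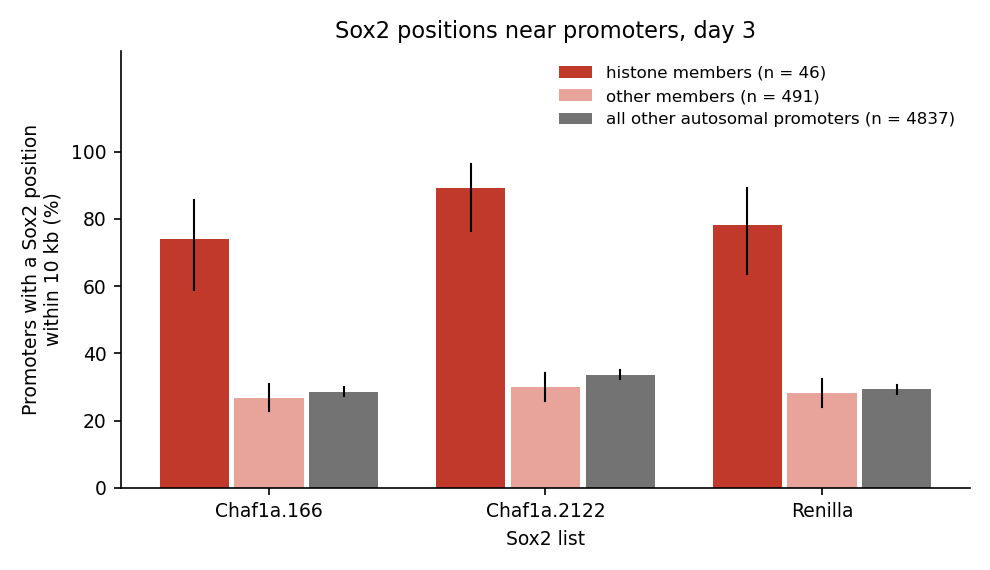
Percent of start sites with a Sox2 position within 10 kb (vertical axis) in the lists Chaf1a.166, Chaf1a.2122 and Renilla, for 46 histone members, 491 other members and 4837 other autosomal promoters; lines are exact 95% intervals. The histone bars stand at 73.9 to 89.1%, and the other bars lie between 26.7 and 33.6%.

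At 500 bp, the histone members had a Sox2 position in 12 cases in Chaf1a.166 (26.1%, against 7.48% of all start sites), 16 in Chaf1a.2122 (34.8%, against 9.49%) and 11 in Renilla (23.9%, against 7.7%). The 17 histone start sites outside the lowest 10% had similar shares, 23.5% in Chaf1a.166, 29.4% in Chaf1a.2122 and 23.5% in Renilla. Hist1h2bb, an H2B gene, had positions 26, 95 and 47 bp away in Chaf1a.166, Chaf1a.2122 and Renilla. Hist1h3f had them 220, 289 and 253 bp away, and Hist1h3i 196, 169 and 211 bp away. The longest chromosome 13 cluster, with 10 kb added on each side, held 11 positions in Chaf1a.166, 15 in Chaf1a.2122 and 9 in Renilla. The fold enrichment that the authors gave for positions near histone members had a median of 7.11 in Chaf1a.166, 7.17 in Chaf1a.2122 and 6.40 in Renilla, each under the median of its whole list (8.37, 7.46 and 8.23). Positions near the other autosomal promoters were likewise under it, with medians of 7.99 in Chaf1a.166, 7.17 in Chaf1a.2122 and 7.56 in Renilla.

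Most low promoters with Sox2 nearby had it in all lists. A position within 10 kb in all 3 lists was found at 135 low promoters (25.1%), against 21.1% of all start sites. It was found at 31 of 46 histone members (67.4%) and at 104 of 491 other members (21.2%). Positions in both Chaf1a lists and not in Renilla were found at 10 (1.86%, against 2.96%), and in Renilla alone at 16 (2.98%, against 3.33%). No list had a position near 313 (58.3%), and the same held for 58.2% of the other promoters.

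Single members of each class show how close positions can lie. With positions in all lists, Spna1, which encodes erythroid spectrin, had them 69, 5 and 21 bp away in Chaf1a.166, Chaf1a.2122 and Renilla. Klhl24 had 35, 82 and 10 bp, and Tcf4, a basic helix-loop-helix transcription factor gene, had 22, 54 and 28 bp. Lin28b had positions 387, 367 and 357 bp away. Of the 9 pluripotency members, Lin28b and Jarid2 had a position within 10 kb in any list, and Dppa2, Dppa4 and Dppa5a had none within 100 kb. Of all autosomal start sites, 58.2% had no position within 10 kb in any list, and 9 members are too few for a comparison.

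With positions in both Chaf1a lists and not in Renilla, Eif1, a translation initiation factor gene, had them 152 and 56 bp away, and 56188 bp away in Renilla. Hist1h4c had them 176 and 142 bp away, and 38637 bp away in Renilla. Tomm7, Snx7 and Nasp were the others nearest in this class. With a position in Renilla alone, Baz2b, which encodes a bromodomain protein, had one 34 bp away, with 39232 bp in Chaf1a.166 and 39212 bp in Chaf1a.2122. Nras, a small GTPase gene, had one 119 bp away, followed by Cbwd1, Alkbh8 and BC018101. With 1 library per list, these differences have no replicate check.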

How the data were processed

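Sono-seq values and Sox2 positions of day 3 were used. Other samples of the series were not analysed here. The authors deposited 1 Sono-seq value per condition and region, treated as a score because no source used here gives its unit, scaling or window; how 3 libraries became 1 value is also not given. Per the file headers, each Sox2 list holds a score, an expected number of false positions, a false discovery rate (q-value) and a fold enrichment ratio over input. The submitters' processing notes name build mm9, BWA 0.7.8 and Bowtie without a role, and no source used here names the caller.

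Start sites were made distinct by chromosome and position. Symbols turned into dates (136 rows) were restored through RefSeq transcripts. Enhancers were taken as the table assigns them, and each distinct enhancer counted once. Distances run from a start site to the nearest position of a list. Intervals are exact Clopper-Pearson for shares, from order statistics for medians and from the chi-square distribution for SDs, at 95%. They cover counting or spread over regions only, take regions as independent and say nothing of the spread between libraries. The functions were tested on simulated data. Tools were Python 3.11.15, NumPy 2.4.6, pandas 2.3.3, SciPy 1.17.1 and Matplotlib 3.10.9.

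Named genes are the members with the 10 lowest levels, the 5 highest and 5 lowest ratios, the 5 nearest to Sox2 in each of 3 list classes, the 5 highest and 5 lowest enhancer medians (at least 3 enhancers) those on the pluripotency, germ line, fibroblast and epithelial lists, and the 3 start sites on either side of the limit. Histone genes and members of other families or lists were named after their values were seen. The members and lists were chosen with earlier results of these data known. A planned test on single libraries was replaced by description. The planned CpG comparison over all members is void, because only 409 of 537 members (76.2%) matched a RefSeq promoter window. Promoter sequences are from RefSeq, build GRCm38.p6, and were matched by gene and never by position.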

Additional observations from a re-analysis of the deposited data

How the results depend on the processing

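Depth is unknown, so no limit of detection can be given. No paired analysis was possible because neither the Sono-seq values nor the Sox2 lists are given by replicate. Leaving out libraries and the CpG alternatives were not run for the reasons given above. Leaving out histone start sites, alone or with stronger positions, was chosen after seeing the data. The median log2 ratio turned round to 0.14 (69.8% higher with CAF-1 knockdown) when members were chosen by the Renilla value alone. It was -0.21 (20.7%) when chosen by the CAF-1 value alone, since the same value then chose the members and entered the ratio. Under the other 10 alternatives the median kept its sign. With CAF-1 values scaled to the Renilla median of promoters, however, its interval spanned both signs (-0.040 to 0.0064). The SD of the ratio was 0.286 in the lowest 5% of level, 0.231 with a pseudocount of 0.01, 0.165 with a pseudocount of 0.05 and 0.231 without the lowest 1% of values, and it was above that of the other promoters in all 12 alternatives, but with a pseudocount of 0.05 (0.164 for the others) and without the lowest 1% of values (0.221 for the others) its interval includes the others' value. The enhancer median was 0.125 for the lowest 5%, 0.131 for the lowest 20%, 0.130 with the Renilla value alone, 0.129 for enhancers beyond 10 kb and 0.122 with 1 mean per promoter. It stayed under that of the other promoters in all 9 alternatives. Shares near Sox2 are given in the order Chaf1a.166, Chaf1a.2122 and Renilla. They were 8.57%, 10.1% and 8.19% within 500 bp, 14.0%, 16.2% and 14.2% within 2 kb, and 66.1%, 70.2% and 68.5% within 50 kb. They were 25.3%, 23.6% and 23.1% for positions with a lower bound of enrichment of at least 2 (20.0%, 20.5% and 19.6% for the others), 20.5%, 19.8% and 19.21% for such positions without histone start sites (19.9%, 20.4% and 19.6% for the others), and 26.6%, 30.5% and 27.7% without histone start sites. With lists of equal length the Chaf1a.2122 share was 30.0%. Within 2 kb the others had 14.0%, 17.2% and 14.3%, equal after rounding in Chaf1a.166 and higher in Chaf1a.2122 and Renilla. Without histone start sites the low promoters had lower shares than the others in all 3 lists. In both Chaf1a lists this held also within 50 kb and for the lowest 20% of level. In Chaf1a.2122 and Renilla it held also for stronger positions without histone start sites. The cause was not tested.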

Other observations

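Chromosome X was left out by the choice of autosomes. Of its 139 listed start sites, 128 (92.1%) lay at or under the level that bounds the low autosomal promoters. The median level was 0.0823 on chromosome X and 0.143 on the autosomes. On chromosome X the log2 ratio (CAF-1 over Renilla) had a median of -0.074, and 56 of 139 start sites (40.3%) were higher with CAF-1 knockdown. The lowest were Tmsb15b1, with 0.0487 in CAF-1 knockdown cells and 0.0389 in Renilla cells, and 3110007F17Rik, with 0.0363 in CAF-1 knockdown cells and 0.0513 in Renilla cells. Several start sites of 1 microRNA cluster on chromosome X (Mir363, Mir92-2, Mir19b-2, Mir20b, Mir106a and Mir18b) had levels between 0.0487 and 0.0594.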
